A study of Mus musculus with 32 samples.

Results

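The genes described here encode lysosomal enzymes and lysosomal membrane proteins of the mouse. They were taken from a list of 35 genes by gene symbol: every probe set that the array annotation assigned to a listed symbol was used. Of the 35 genes, 29 had a probe set, 40 probe sets in all (27 on array design a and 13 on array design b) of 13057 on both designs, which name 6137 genes. The genes Ctsz, Npc2, Lipa, Asah1, Arsb and Tpp1 were matched to none. Of the 40 probe sets, 34 (25 genes) were bright enough on at least 2 of 16 arrays of their design to be tested. The other 6 (both of Ctsc, those of Ctsh, Ctss and Neu1, and the dimmer of Gla) were above the floor, the detection limit explained with the data, on no array.

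Lysosomes are acidic compartments that degrade proteins, lipids, glycans and whole organelles delivered by endocytosis and autophagy. Their hydrolases are made in the endoplasmic reticulum, tagged with mannose 6-phosphate, sorted at the Golgi and activated at low pH, which a proton pump maintains. Loss of single members causes storage diseases, several of them with hearing loss, and many of the genes share a short E-box-like promoter motif that factors of the MiT family (TFEB and its relatives) bind.

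All RNA came from UB/OC-1, a mouse line with conditional immortality that was established from the embryonic organ of Corti, the hearing organ of the inner ear. Such lines carry a temperature-sensitive viral large T antigen under an interferon-inducible promoter, which keeps them dividing at the lower temperature. Total RNA of 16 cultures was hybridised to both oligonucleotide array designs, 32 arrays in all. The time points were day 0 at 33 °C, labelled undifferentiated (2 cultures), and days at 39 °C, which the labels call differentiating conditions, grouped here as early (days 1 to 3, 4 cultures), middle (days 4 to 7, 5 cultures) and late (days 8 to 14, 5 cultures). Each phase at 39 °C was set against day 0, and late against early. Experiment A gave 12 of the cultures (1 for each day from 0 to 9, and days 11 and 14), and experiment B gave 4 (days 0, 2, 4 and 9). Time at 39 °C and the temperature itself cannot be told apart, since no culture stayed at 33 °C after day 0. The same holds for any change in the large T antigen or in interferon exposure that came with the move. One culture of a single line stood for each day, and nothing in the labels says how cultures were kept apart, so a p-value reflects no more than the spread among these 16 cultures, which may be technical.

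The deposited intensities had been scaled by the authors to the same trimmed mean on every array (300.4 to 300.8), and many were negative. Values under a floor of 141 on design a or 198 on design b, set from the size of the negative values, were raised to it before taking log2. All changes are differences of log2 intensity from 1 limma fit per design, with p-values adjusted over the 7726 probe sets tested on both designs. A threshold of 0.05 for the adjusted p was used. Of the 34 tested probe sets, 12 (those of Ctsa, Ctsl, Grn, Lamp1 and Psap and the brighter of Ctsb) are of a type that can also read related genes, so the gene behind them is uncertain. Intensities of different probe sets cannot be compared with each other. Because no array gives absolute RNA amounts, fewer cells of a type and less RNA per cell cannot be told apart in any of these values. Values of a phase are given in day order for experiment A, followed by the 1 culture of experiment B.

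Among the lysosomal members the move to 39 °C went with higher intensities. Early, 4 of the 34 tested probe sets (3 genes) rose against day 0, and none fell; over all features 3.49% were called and 1.45% were called higher. In the middle phase 11 (9 genes) rose and none fell, against 8.19% of all features called and 3.61% called higher. Late, 13 (10 genes) rose and none fell, against 10.9% called and 4.84% called higher. The median log2 difference of the 34 was 0.83 early, 1.04 in the middle phase and 1.00 late, and that of all 7726 was 0.05, 0.08 and 0.11. Mean log2 intensity was lowest at day 0 for 32 of the 34, counting Gla probe set 1, which was at the floor at day 0 and late alike. The exceptions were Cd63 and Acp5. For 4 of the 34 (Gla probe set 1, Glb1, Man2b1 and the dimmer of Scarb2) both day 0 arrays were at the floor. These 4 could not read lower at 39 °C than at day 0. Their place among the 32, among those that did not fall and in the medians therefore says nothing about direction. With experiment as a block the counts were 11 early, 18 in the middle phase and 16 late, again with none lower. Shares over all features were counted for the fit without a block on all cultures alone. The counts of this and other alternatives therefore have no such share beside them. Without the day 0 culture of experiment B, the counts were 1, 6 and 7, and without day 1 of experiment A the early count was 8. Within experiment A the median difference was 0.72 early, 0.85 in the middle phase and 0.77 late. Within experiment B, which has 1 culture a phase, it was 1.16, 1.22 and 1.23.

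**Figure D1:**
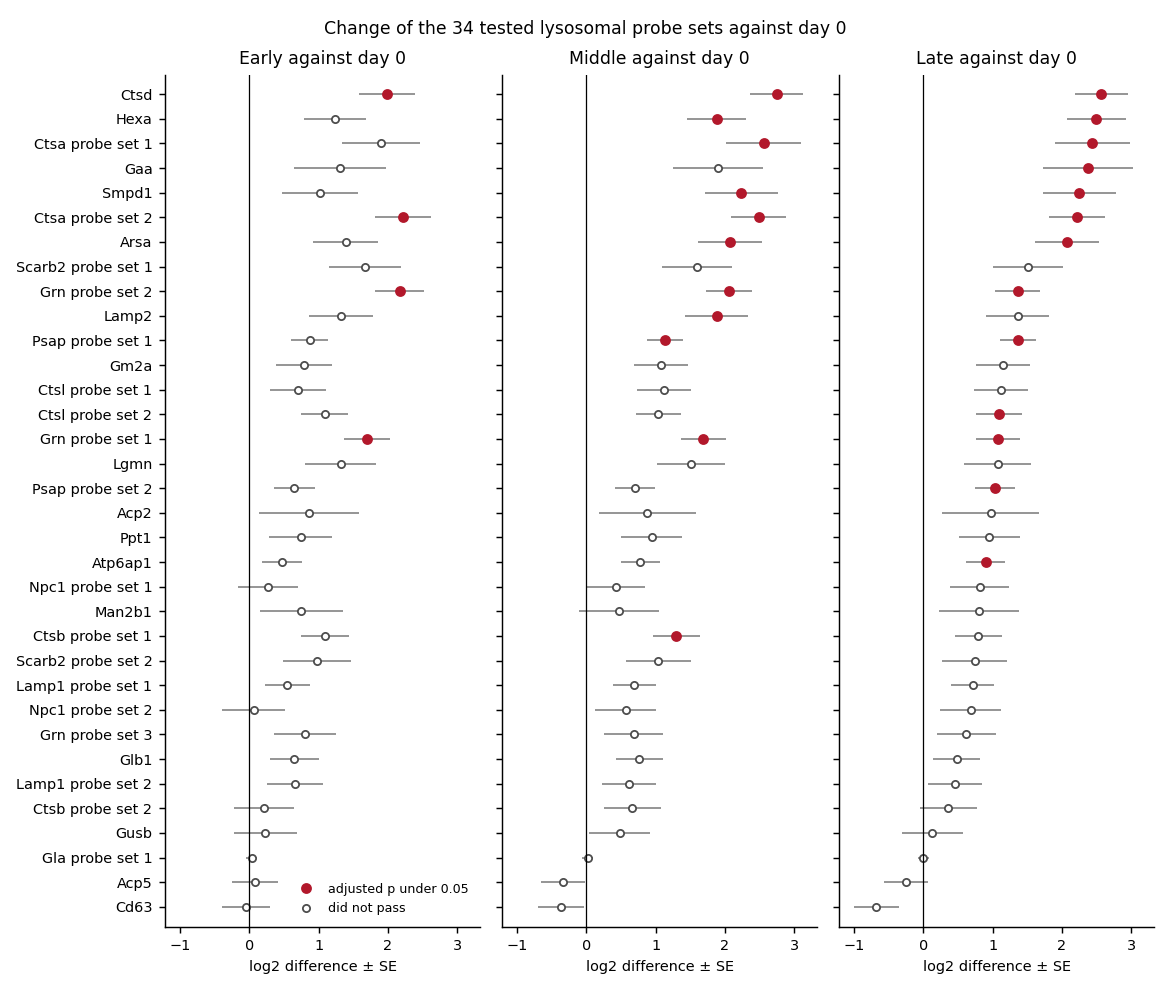
Log2 difference ± SE of the 34 tested lysosomal probe sets in the early, middle and late phases against day 0 (limma, 2 cultures at day 0), ordered by the late difference. Filled points passed at an adjusted p under 0.05; 4, 11 and 13 did so, all on the side of higher intensity at 39 °C, while Cd63 and Acp5 lay left of 0 in the middle and late panels.

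In number, the proteases had the most probe sets that passed in the middle phase and late. Of 8 tested probe sets of 5 genes, 2 rose early, 4 in the middle phase and 4 late, and none fell. Over all features 1.45%, 3.61% and 4.84% were called higher in these phases. As a share, more passed late among lipid hydrolases and activator proteins (3 of 5) and progranulin (2 of 3). The tested genes were the aspartic protease cathepsin D (Ctsd), the serine carboxypeptidase protective protein cathepsin A (Ctsa), the cysteine cathepsins B and L (Ctsb, Ctsl) and the asparaginyl endopeptidase legumain (Lgmn). The probe sets of the cysteine proteases Ctsc (dipeptidyl peptidase I), Ctsh and Ctss were not above the floor on any array.

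Cathepsin D, a major protein-degrading enzyme of lysosomes, read 1708 and 1929 at day 0, 5172, 6372, 10439 and 7915 early, 12631, 14248, 17831, 15337 and 5498 in the middle phase and 12489, 12237, 10650, 12440 and 7157 late. Every culture at 39 °C lay above both day 0 cultures, and in the middle and late phases the experiment B culture was the lowest of its phase. Ctsd rose by a log2 difference of 1.99 ± 0.40 (SE) early (3.98-fold, adjusted p = 0.00739), 2.75 ± 0.38 in the middle phase (6.72-fold, adjusted p = 0.000171) and 2.57 ± 0.38 late (5.93-fold, adjusted p = 0.000235). The late difference was 2.80 within experiment A and 1.89 within experiment B. The early call was lost without either day 0 culture (adjusted p = 0.056 without that of experiment A and 0.0571 without that of experiment B), while the middle and late calls remained under each of the alternatives run.

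Cathepsin A, which also stabilises the sialidase and beta-galactosidase complex, was read by 1 probe set on each design. The design b probe set (probe set 1) read 38 and 234 at day 0, 129, 992, 1492 and 1419 early, 1371, 1298, 1070, 1052 and 1638 in the middle phase and 1177, 1278, 1032, 1121 and 1255 late. The design a probe set (probe set 2) read 163 and 110 at day 0, 283, 843, 1147 and 906 early, 1008, 840, 755, 748 and 936 in the middle phase and 611, 838, 748, 746 and 615 late. On both, day 1 of experiment A was the lowest culture at 39 °C, from day 2 every culture was several-fold above day 0, and the values within each later phase spread little. Probe set 2 rose by 2.22 ± 0.41 early (4.65-fold, adjusted p = 0.00377), 2.49 ± 0.40 in the middle phase (5.62-fold, adjusted p = 0.000481) and 2.22 ± 0.40 late (4.66-fold, adjusted p = 0.00106). Probe set 1 rose by 2.56 ± 0.54 in the middle phase (5.89-fold, adjusted p = 0.00461) and 2.44 ± 0.54 late (5.43-fold, adjusted p = 0.0054). Its early difference of 1.90 ± 0.56 passed with experiment as a block (adjusted p = 0.0704 without and 0.0311 with it). One of the day 0 arrays was at the floor for each probe set, so the folds depend on the floor: with the higher floor they were 2.60 early, 3.14 in the middle phase and 2.61 late for probe set 2, whose early call was lost (adjusted p = 0.0528), and 3.29 and 3.03 for probe set 1. Leaving out day 0 of experiment B lost the early call of probe set 2 (adjusted p = 0.0543), and leaving out day 0 of experiment A lost the middle and late calls of probe set 1 (0.0515 and 0.0544). The late differences were 2.17 and 2.54 within experiment A for probe sets 2 and 1, and 2.12 and 2.42 within experiment B.

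Promoter sequence was available for 31 of the 35 listed genes, from RefSeq (mouse build GRCm38.p6), as the 250 bases before and 50 after each annotated start. The letters CACGTG, the core of the E-box that MiT factors bind, were searched for; they are their own reverse complement, so both strands are covered. They occur in the 250 bases before a start in 9 of the 31 members (29.0%), against 6.86% of all 27025 genes in the table. The longer TCACGTGA, which contains the core and is also its own reverse complement, occurs there in 3 of the 31 (Ctsa, Ctsd and Gla), against 0.907% of all genes. Of the 11 matched members that passed in a comparison, 5 hold the core (Arsa, Ctsa, Ctsd, Ctsl and Gaa), of the 12 that were tested and did not pass, 4 do (Gla, Glb1, Lamp1 and Lgmn), and of the 8 that were not tested, 0 do. A match describes letters only, and its part in the differences was not tested. The following sequences are shown because Ctsd and Ctsa carry the core and rose, Hexa rose and does not carry it, and Lamp1 carries the most copies and did not pass; each is the 250 bases before the start, 5′ to 3′ on the strand of the gene, with the core in capitals.
Ctsd (chr7:142387828-142388077, minus strand): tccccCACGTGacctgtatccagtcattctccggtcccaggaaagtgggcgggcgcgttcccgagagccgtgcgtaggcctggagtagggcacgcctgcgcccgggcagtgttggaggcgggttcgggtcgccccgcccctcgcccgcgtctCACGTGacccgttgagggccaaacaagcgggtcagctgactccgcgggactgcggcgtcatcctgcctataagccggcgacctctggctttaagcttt
Ctsa (chr2:164833523-164833772, plus strand): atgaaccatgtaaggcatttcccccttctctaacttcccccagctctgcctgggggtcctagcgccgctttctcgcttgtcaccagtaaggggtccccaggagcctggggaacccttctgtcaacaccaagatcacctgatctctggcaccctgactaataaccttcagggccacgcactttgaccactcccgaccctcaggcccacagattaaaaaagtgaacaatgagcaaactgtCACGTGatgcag
Hexa (chr9:59539290-59539539, plus strand): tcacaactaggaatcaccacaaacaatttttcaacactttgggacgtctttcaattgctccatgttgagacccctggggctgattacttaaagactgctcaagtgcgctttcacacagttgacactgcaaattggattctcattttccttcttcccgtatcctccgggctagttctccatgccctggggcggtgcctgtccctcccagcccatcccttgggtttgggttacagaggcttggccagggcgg
Lamp1 (chr8:13158911-13159160, plus strand): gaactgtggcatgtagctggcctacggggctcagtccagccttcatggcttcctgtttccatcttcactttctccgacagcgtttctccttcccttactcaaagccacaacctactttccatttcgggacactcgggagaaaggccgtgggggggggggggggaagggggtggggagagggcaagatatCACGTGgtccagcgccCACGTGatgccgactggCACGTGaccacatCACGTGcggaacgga
In Ctsd the cores begin 245 and 98 bases before the start, and in Ctsa 12 bases before it. In Lamp1 they begin 61, 45, 28 and 15 bases before it. Among the members that passed, Ctsa and Psap had a further annotated start each, and neither of those windows holds the core. Of the others, Lgmn had a further start whose window lacks the core. Acp5 had several starts, all without it.

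Of the cysteine cathepsins B and L, 1 probe set each passed in a comparison. The brighter Ctsb probe set, probe set 1 on design a, read 1136 and 1320 at day 0, 2111, 1611, 4236 and 3195 early, 3280, 3700, 2889, 2278 and 3124 in the middle phase and 1450, 2599, 1906, 1942 and 3047 late. Each culture at 39 °C was above both day 0 cultures, and days 8, 11 and 14 of experiment A were among the lowest of them. It rose by 1.30 ± 0.34 in the middle phase (2.46-fold, adjusted p = 0.0202). The early difference of 1.09 ± 0.35 passed with experiment as a block (adjusted p = 0.106 without and 0.0378 with it), and the late difference was 0.79 ± 0.34 (adjusted p = 0.16). Without day 0 of experiment A or of experiment B the middle call was lost (adjusted p = 0.138 and 0.0943). The other Ctsb probe set, on design b, ranged from 33 to 608 and its groups overlapped in each phase, with differences of 0.21 ± 0.43 early, 0.66 ± 0.41 in the middle phase and 0.36 ± 0.41 late.

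Cathepsin L had 2 probe sets on design b. Probe set 2 read 1167 and 1401 at day 0, 1520, 4232, 2834 and 2979 early, 2492, 2311, 2548, 2916 and 2948 in the middle phase and 2677, 2410, 3640, 1917 and 3294 late. Its cultures at 39 °C all lay above day 0, with day 1 of experiment A nearest to it. It rose by 1.09 ± 0.33 late (2.13-fold, adjusted p = 0.0385), with 1.15 within experiment A and 1.23 within experiment B. The call was lost without day 0 of experiment A or of experiment B (adjusted p = 0.199 and 0.139), and also without the day 9 culture of experiment B or a culture of day 4, 8, 9 or 11 of experiment A (0.0511 to 0.0789). The early and middle differences, 1.09 ± 0.34 and 1.04 ± 0.33, passed with experiment as a block (adjusted p = 0.0954 and 0.0577 without, and 0.041 and 0.0253 with it). Probe set 1 ranged from 1415 to 6536 and differed by 1.12 ± 0.39 both in the middle phase and late (adjusted p = 0.0871 and 0.0765), each passing with experiment as a block (0.0499 and 0.0447). Legumain, which processes other lysosomal proteases, ranged from 220 to 882. Its largest difference was 1.51 ± 0.49 in the middle phase (2.84-fold), with an adjusted p of 0.0663, and of 0.026 with experiment as a block.

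Progranulin (Grn), a secreted precursor that is cut into granulins in lysosomes, had its highest phase mean early on each of its 3 probe sets. Its design b probe set (probe set 1) read 1331 and 808 at day 0, 2868, 5251, 3385 and 2505 early, 3214, 3878, 3791, 3494 and 2512 in the middle phase and 2989, 2566, 2011, 1722 and 1893 late. The brighter design a probe set (probe set 2) read 479 and 712 at day 0, 1902, 3060, 3724 and 2213 early, 2632, 2633, 2928, 2596 and 1643 in the middle phase and 2141, 1863, 1170, 978 and 1673 late. On both, the highest culture was day 2 or 3 of experiment A, and days 11 and 14 were the lowest cultures of that experiment at 39 °C. Probe set 2 rose by 2.17 ± 0.35 early (4.51-fold, adjusted p = 0.00126), 2.06 ± 0.33 in the middle phase (4.18-fold, adjusted p = 0.000553) and 1.36 ± 0.33 late (2.57-fold, adjusted p = 0.0114). Probe set 1 rose by 1.70 ± 0.33 early (3.24-fold, adjusted p = 0.00546), 1.69 ± 0.32 in the middle phase (3.22-fold, adjusted p = 0.00186) and 1.08 ± 0.32 late (2.11-fold, adjusted p = 0.0328). The remaining probe set, on design a, ranged from 430 to 1739, with differences of 0.80 ± 0.45 early, 0.68 ± 0.43 in the middle phase and 0.62 ± 0.43 late that did not pass. Its highest culture was day 2 of experiment B (1739), while within experiment A day 8 was the highest (824). Without day 0 of experiment B, probe set 1 lost all 3 calls (adjusted p = 0.142 early, 0.0771 in the middle phase and 0.467 late), and its late call was lost without the day 8 culture of experiment A (0.0707) and without its day 9 culture (0.068). Probe set 2 lost the late call without day 0 of experiment A (0.139).

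**Figure D2:**
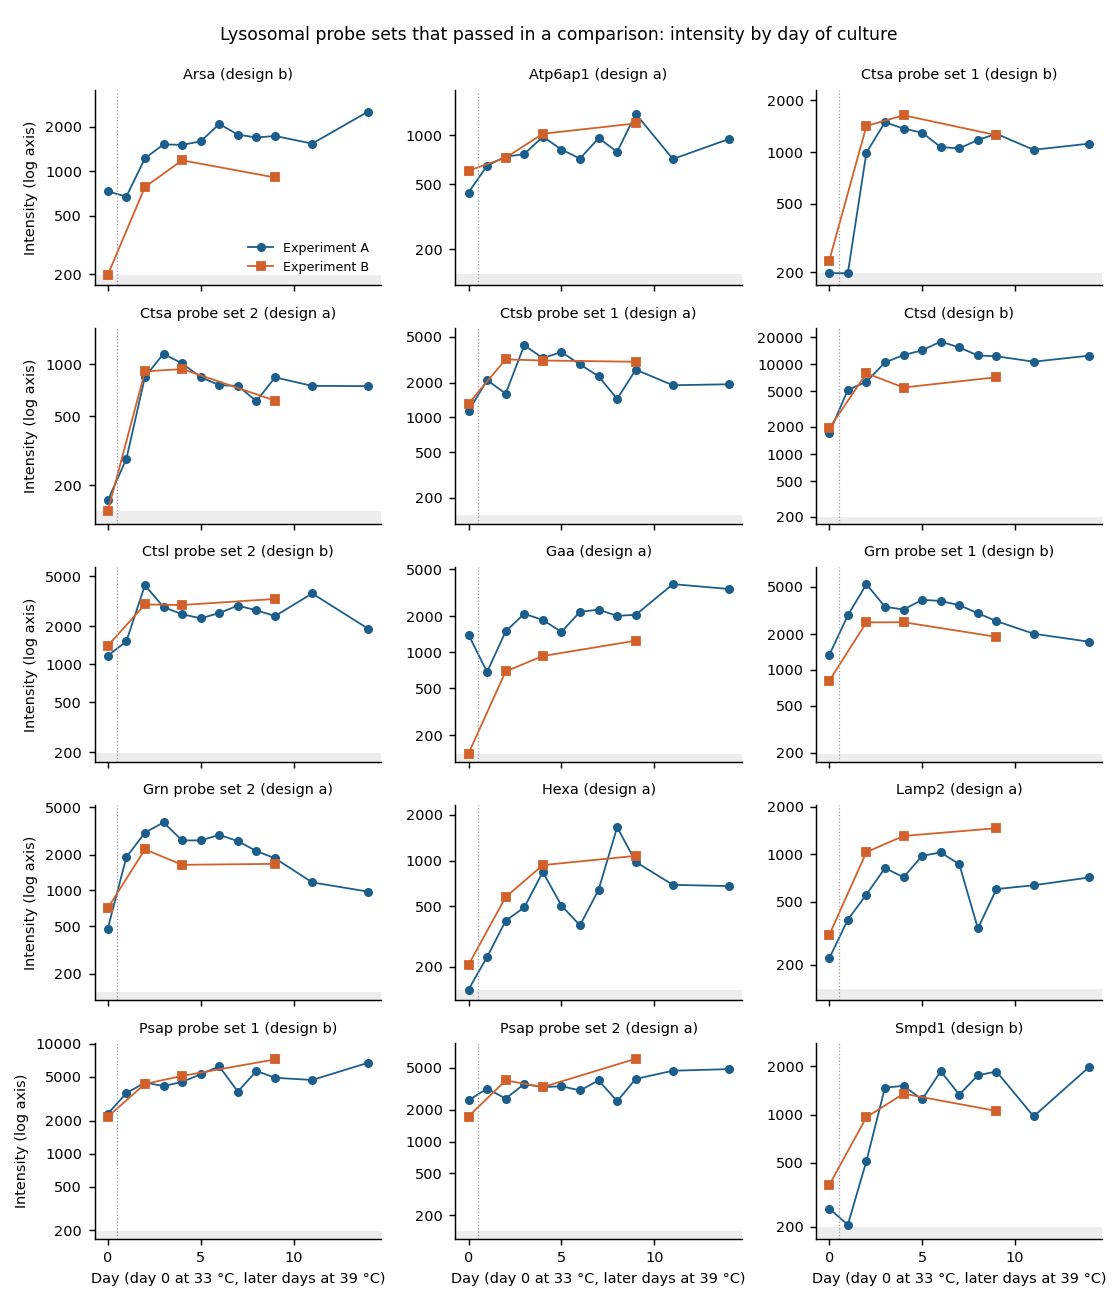
Deposited intensity (log axis, raised to the floor where lower, grey band) against day of culture for the 15 probe sets that passed in a comparison, with experiment A as circles and experiment B as squares; the dotted line separates day 0 at 33 °C from the days at 39 °C. The Ctsd and Ctsa probe sets climb within the first days and stay up, both Grn probe sets shown peak at day 2 or 3 of experiment A, and Psap probe set 1 is highest in the last cultures of both experiments.

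Glycosidases, which strip sugars from glycoproteins, glycolipids and glycogen, were represented by 6 tested genes, of which none rose early, 1 in the middle phase and 2 late. For comparison, 1.45%, 3.61% and 4.84% of all features were called higher in these phases. Hexa, the alpha subunit of beta-hexosaminidase whose loss causes Tay-Sachs disease, read -27 and 205 at day 0, 231, 401, 491 and 575 early, 841, 505, 374, 642 and 934 in the middle phase and 1661, 980, 692, 679 and 1075 late. No culture at 39 °C overlapped day 0, and every late culture was above every early one. Hexa rose by 1.88 ± 0.43 in the middle phase (3.68-fold, adjusted p = 0.00903) and 2.50 ± 0.43 late (5.66-fold, adjusted p = 0.00087). The early difference of 1.24 ± 0.45 passed with experiment as a block (adjusted p = 0.17 without and 0.0484 with it). The late difference was 2.73 within experiment A and 2.39 within experiment B, and the late call remained under each alternative run. The middle call was lost with the higher floor (adjusted p = 0.0604) and when the day 0 culture of experiment A was left out (0.104). As 1 of the day 0 arrays was below the floor, the folds depend on it: with the higher floor they were 2.31 in the middle phase and 3.55 late.

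Gaa, the acid alpha-glucosidase that degrades glycogen in lysosomes, read 1405 and 41 at day 0, 682, 1500, 2104 and 691 early, 1869, 1482, 2188, 2278 and 930 in the middle phase and 2022, 2065, 3735, 3402 and 1251 late. The day 0 cultures of experiments A and B stood far apart, and the late culture of experiment B lay below day 0 of experiment A, so that the groups overlapped. Gaa rose by 2.38 ± 0.65 late (5.20-fold, adjusted p = 0.0232), with 0.94 within experiment A and 3.15 within experiment B. Without day 0 of experiment B the fold was 1.65 and the call was lost. Without day 0 of experiment A the fold was at least 16.4, since day 0 of experiment B was below the floor. The difference of 3.15 within experiment B is a lower bound for the same reason, and the 5.20-fold depends on the floor. The call was also lost without the day 11 culture of experiment A (adjusted p = 0.0507) and without its day 14 culture (0.0509). In the middle phase the difference was 1.90 ± 0.65, with an adjusted p of 0.0818, and of 0.0444 with experiment as a block.

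The remaining glycosidases did not pass in any phase. Beta-galactosidase (Glb1) was at the floor on both day 0 arrays and ranged from 6 to 325, with a difference of 0.76 ± 0.34 in the middle phase (adjusted p = 0.22). Beta-glucuronidase (Gusb) ranged from 37 to 402, with differences of 0.23 ± 0.46 early, 0.48 ± 0.44 in the middle phase and 0.13 ± 0.44 late. The lysosomal alpha-mannosidase (Man2b1) was at the floor on both day 0 arrays and ranged from -698 to 552. The brighter Gla probe set (alpha-galactosidase A) was above the floor on 2 of 16 arrays, and the sialidase Neu1 on none.

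Among the lipid hydrolases and their activator proteins, 5 tested probe sets of 4 genes, none rose early, 2 in the middle phase and 3 late. The shares of all features called higher were 1.45%, 3.61% and 4.84%. Prosaposin (Psap), the precursor of the saposins that present sphingolipids to their hydrolases, was read on both designs. Probe set 1 on design b read 2310 and 2170 at day 0, 3555, 4446, 4128 and 4322 early, 4505, 5291, 6236, 3672 and 5106 in the middle phase and 5673, 4912, 4691, 6722 and 7223 late. Probe set 2 on design a read 2465 and 1728 at day 0, 3180, 2562, 3520 and 3810 early, 3284, 3357, 3054, 3812 and 3292 in the middle phase and 2419, 3936, 4706, 4874 and 6114 late. On probe set 1 all cultures at 39 °C were above day 0 and the late ones above the early ones; on probe set 2 day 8 of experiment A fell just under day 0 of the same experiment. Probe set 1 rose by 1.13 ± 0.26 in the middle phase (2.18-fold, adjusted p = 0.00866) and 1.36 ± 0.26 late (2.57-fold, adjusted p = 0.00161), and probe set 2 by 1.03 ± 0.29 late (2.04-fold, adjusted p = 0.0264). The early difference of probe set 1, 0.87 ± 0.27, passed with experiment as a block (adjusted p = 0.0842 without and 0.0248 with it). The late difference of probe set 1 was 1.24 within experiment A and 1.73 within experiment B, and that of probe set 2 was 0.64 and 1.82. Without day 0 of experiment B the middle call of probe set 1 and the late call of probe set 2 were lost (adjusted p = 0.092 and 0.348). The late call of probe set 2 was also lost without the day 11 culture of experiment A (0.051) and without its day 14 culture (0.055).

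Smpd1, the acid sphingomyelinase, read 259 and 363 at day 0, 205, 512, 1474 and 962 early, 1509, 1242, 1862, 1332 and 1349 in the middle phase and 1758, 1856, 974, 1986 and 1053 late. Day 1 of experiment A was below day 0, while every middle and late culture was well above it. The gene rose by 2.24 ± 0.53 in the middle phase (4.71-fold, adjusted p = 0.0114) and 2.25 ± 0.53 late (4.76-fold, adjusted p = 0.00846), the late difference being 2.61 within experiment A and 1.54 within experiment B. Without day 0 of experiment A the adjusted p was 0.112 in the middle phase and 0.0913 late, and without day 0 of experiment B it was 0.058 in the middle phase. The ganglioside activator Gm2a ranged from 296 to 1653, with differences of 1.08 ± 0.39 in the middle phase and 1.15 ± 0.39 late (adjusted p = 0.105 and 0.0722). Palmitoyl-protein thioesterase (Ppt1), which removes fatty acids from proteins, ranged from 143 to 450 and differed by 0.94 ± 0.44 in the middle phase and 0.95 ± 0.44 late (adjusted p = 0.248 and 0.21).

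Of 3 tested genes for sulfatases and phosphatases, only Arsa passed, in the middle phase and late. In these phases 3.61% and 4.84% of all features were called higher. Arylsulfatase A, which removes sulfate from sulfatides, read 728 and 191 at day 0, 672, 1220, 1518 and 780 early, 1505, 1590, 2085, 1766 and 1183 in the middle phase and 1689, 1730, 1535, 2526 and 905 late. Middle and late cultures lay above both day 0 cultures, and in each phase at 39 °C but the early one experiment B was the lowest. Arsa rose by 2.07 ± 0.46 in the middle phase (4.21-fold, adjusted p = 0.00677) and 2.07 ± 0.46 late (4.20-fold, adjusted p = 0.00557). Late, the difference was 1.33 within experiment A and 2.19 within experiment B. Without day 0 of experiment B the folds were 2.20 in the middle phase and 2.19 late, and both calls were lost. Without day 0 of experiment A the folds were at least 8.07 and 8.04, since day 0 of experiment B (191) was just below the floor of 198. The late difference within experiment B is a lower bound for the same reason, and the 4.21-fold and 4.20-fold depend on the floor. The acid phosphatase Acp2 ranged from 115 to 1188, with differences from 0.86 to 0.97 and an SE of at least 0.70. In experiment B it read 115, 254 and 227 at 39 °C, against 131 at day 0. Acp5, the tartrate-resistant acid phosphatase of osteoclasts and macrophages, was above the floor on 6 of 16 arrays and did not pass in any phase.

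The membrane proteins and cholesterol transporters gave 9 tested probe sets of 6 genes, of which none rose early, 1 in the middle phase and 1 late. Called higher over all features were 1.45%, 3.61% and 4.84%, and a count of 1 among 9 says little beside such shares. Lamp2, a major membrane glycoprotein that also serves as a receptor in chaperone-mediated autophagy, read 220 and 309 at day 0, 386, 557, 818 and 1032 early, 716, 977, 1027, 864 and 1305 in the middle phase and 340, 603, 637, 714 and 1460 late. No culture at 39 °C overlapped day 0, and experiment B was the highest in each phase. Lamp2 rose by 1.88 ± 0.45 in the middle phase (3.68-fold, adjusted p = 0.0116), a call lost without day 0 of experiment A (0.116). Its differences of 1.32 ± 0.46 early and 1.36 ± 0.45 late passed with experiment as a block (adjusted p = 0.0108 and 0.00271), against 0.153 and 0.0588 without it. Within experiment A the middle difference was 2.01, and within experiment B 2.08.

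Atp6ap1, an accessory subunit of the proton pump, read 445 and 607 at day 0, 652, 740, 768 and 729 early, 982, 819, 720, 962 and 1024 in the middle phase and 793, 1356, 716, 949 and 1185 late. All cultures at 39 °C lay above both day 0 cultures, by small steps. It rose by 0.90 ± 0.28 late (1.87-fold, adjusted p = 0.0457), with 1.05 within experiment A and 0.97 within experiment B. The call was lost under 15 of 27 alternatives, among them without day 0 of experiment A or of experiment B (adjusted p = 0.28 and 0.0894), without 1 of 7 further cultures of experiment A (days 1, 3, 4, 5, 7, 9 and 14) and without 1 of 2 of experiment B (days 2 and 9), with adjusted p from 0.0503 to 0.102. The middle difference of 0.78 ± 0.28 passed with experiment as a block (adjusted p = 0.102 without and 0.0316 with it).

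Other membrane proteins did not pass in the fit without a block. Lamp1, the most abundant lysosomal membrane glycoprotein, ranged from 1969 to 4549 on probe set 1 and from 1680 to 4851 on probe set 2, with late differences of 0.71 ± 0.31 and 0.46 ± 0.39 (adjusted p = 0.169 and 0.538). Scarb2, the receptor that carries glucocerebrosidase to lysosomes, ranged from 145 to 1554 on its brighter probe set. That probe set differed by 1.67 ± 0.52 early, 1.60 ± 0.51 in the middle phase and 1.51 ± 0.51 late (adjusted p = 0.0954, 0.0582 and 0.0651), and each difference passed with experiment as a block (0.0338, 0.0288 and 0.0361). Its second probe set was at the floor on both day 0 arrays and passed with the block in the middle phase alone (adjusted p = 0.227 without and 0.022 with it). Npc1, which exports cholesterol from lysosomes, ranged from 166 to 529 and from 73 to 481 on its 2 probe sets, with late differences of 0.81 ± 0.42 and 0.68 ± 0.44. The tetraspanin Cd63 differed in sign from these: it read 1400, 2825, 2027, 2063 and 3297 late, against 2829 and 4486 at day 0, a difference of -0.68 ± 0.33 (adjusted p = 0.242).

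Within the time at 39 °C, none of the 34 probe sets passed for late against early (limma). Over all features 0.984% were called and 0.427% were called higher in this comparison. An unadjusted p under 0.05 was found for 6 of the 34. How many of all features had such an unadjusted p was not counted, so the 6 cannot be set against a share. The median difference of the 34 was 0.07, against 0.05 for all features. Hexa had the largest difference, 1.26 ± 0.35 (2.39-fold, adjusted p = 0.0992), with every late culture above every early one, 1.39 within experiment A and 0.90 within experiment B. It passed with experiment as a block (adjusted p = 0.0299). Smpd1 differed by 1.23 ± 0.42 (2.35-fold, adjusted p = 0.233) and passed when day 3 of experiment A was left out. Gaa followed with 1.07 ± 0.52, and Psap probe set 1, whose phases did not overlap, differed by 0.49 ± 0.21 (adjusted p = 0.392). At the other end, Grn probe set 2 had a difference of -0.81 ± 0.27 (adjusted p = 0.21), Cd63 of -0.63 ± 0.27 (adjusted p = 0.404) and Grn probe set 1 of -0.62 ± 0.25 (adjusted p = 0.372).

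**Figure D3:**
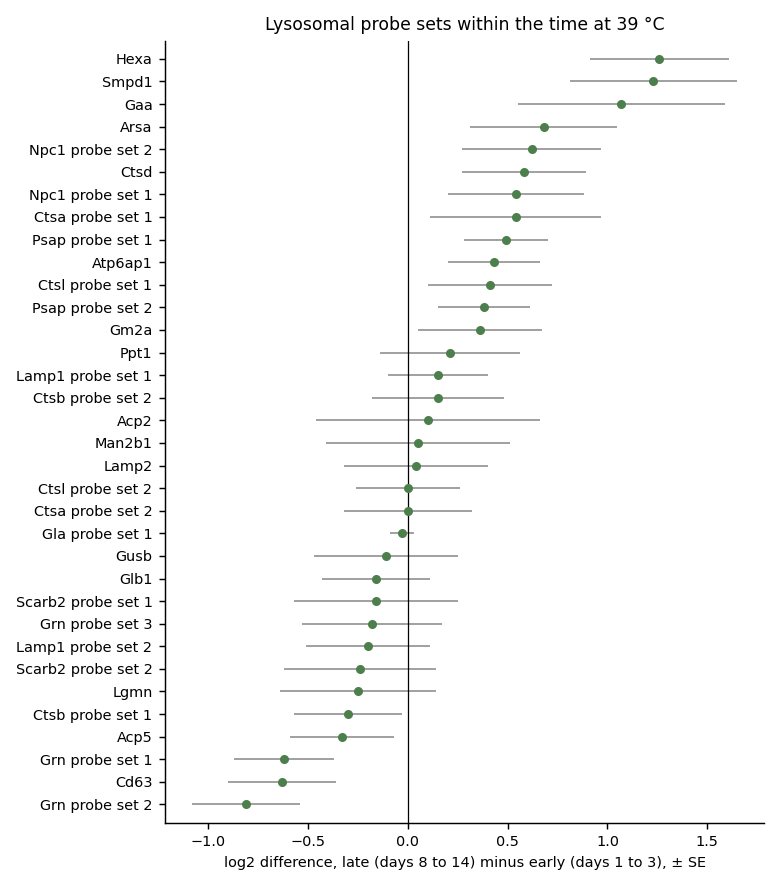
Log2 difference ± SE of the 34 tested lysosomal probe sets, late minus early (5 and 4 cultures), in order of size. Hexa, Smpd1 and Gaa lie farthest to the right and Grn probe set 2 farthest to the left, and none passed at an adjusted p of 0.05.

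Genes that work with these enzymes were counted from lists chosen for the lysosome and its supply. Beside these counts, 1.45% of all features were called higher early, 3.61% in the middle phase and 4.84% late. Of 10 tested probe sets for the proton pump and its chloride partner, none rose early, 2 in the middle phase and 3 late, with a late median of 0.84. The late calls were Atp6v0e (1.17 ± 0.24, adjusted p = 0.00299), Atp6v0b (0.95 ± 0.27, adjusted p = 0.0305) and Atp6v0d1 (1.26 ± 0.39, adjusted p = 0.0416), all of the membrane sector through which protons pass. The list for autophagy and its regulators had 10 tested probe sets, of which 2 rose early, 5 in the middle phase and 6 late, with a late median of 1.34. It also names MiT factors, but none of them was among its tested genes. Late, Gabarapl1 rose by 2.17 ± 0.41 (4.50-fold, adjusted p = 0.00183), Gabarapl2 by 2.17 ± 0.60 (adjusted p = 0.0249) and Gabarap by 1.75 ± 0.29 (3.37-fold, adjusted p = 0.000664). These 3 and Map1lc3a, whose brighter probe set rose by 1.57 ± 0.38 (adjusted p = 0.0112), are ubiquitin-like proteins that are attached to autophagosome membranes.

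For the sorting machinery that delivers the hydrolases no probe set passed. Of all features, 3.49% were called early, 8.19% in the middle phase and 10.9% late. Called higher were 1.45%, 3.61% and 4.84%. Of 25 tested probe sets for mannose 6-phosphate receptors, adaptors, clathrin and retromer, 0 passed early, 0 in the middle phase and 0 late against day 0 (limma), and the late median was 0.16. The receptors themselves, M6pr and Igf2r, named after their values were seen, differed late by -0.43 ± 0.61 and -0.03 ± 0.10. The mean intensity of Igf2r was under the floor of 141 at day 0 (112.5) and late (117.6). Its small difference therefore does not measure whether it changed. Among 19 tested probe sets of a list for further lysosomal proteins, 2 rose early, 3 in the middle phase and 4 late, with a late median of 0.51. That list also holds Acp1, a phosphatase of the cytosol. Its probe sets, which enter the median, differed late by -0.99, -0.16 and -0.07 and did not pass. All of the late calls were probe sets of 1 gene, Tmem59, a Golgi and endosomal membrane protein (1.30 to 2.26), and Laptm4a, a lysosomal transmembrane protein, passed in the middle phase (1.23 ± 0.34, adjusted p = 0.0319), with 0.87 ± 0.36 early and 0.85 ± 0.34 late. Of 7 probe sets for cystatins and other protease inhibitors, 1 passed late: cystatin C (Cst3), an extracellular inhibitor of cysteine cathepsins, rose by 1.23 ± 0.28 (adjusted p = 0.00618) on the probe set that passed and differed by 0.06 ± 0.72 on the other.

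**Figure D4:**
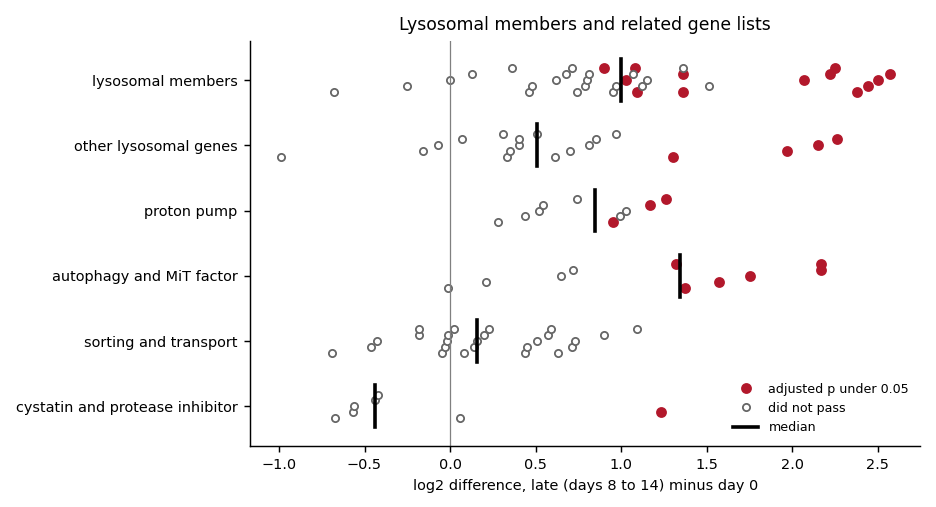
Log2 difference, late minus day 0, of each tested probe set of the lysosomal members and of 5 related lists; filled points passed at an adjusted p under 0.05 and the vertical bar is the list median. The medians are 1.00 for the members, 0.51 for other lysosomal genes, 0.84 for the proton pump, 1.34 for autophagy, 0.16 for sorting and transport and -0.44 for cystatins and other protease inhibitors. The list of other lysosomal genes includes the cytosolic Acp1.

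Markers of cell types were read on the same arrays. Late against day 0, 10.9% of all features were called and 4.84% were called higher. Of 8 tested probe sets of macrophage markers, cells rich in lysosomes, none passed in any phase. Their summed intensity on design a was 1556 to 5609 at day 0, 3263 to 7068 early, 2675 to 8838 in the middle phase and 3577 to 13462 late. On design b it was 562 to 1456 at day 0, 341 to 1221 early, 528 to 1822 in the middle phase and 714 to 1835 late. Csf1r and Adgre1 were above the floor on no array, whereas Lyz2 (786 to 9588), Ptprc (490 to 2655) and Cd14 (318 to 989) were above it on all. Of 16 arrays, Cd68 was above it on 14, Fcgr1 on 6 and Fcgr3 on 3. Mpeg1 was above it on 10 arrays of design a and 8 of design b. Of 11 tested probe sets of organ of Corti and otic epithelium markers, 2 rose late, with a list median of 0.22: Bmp4 rose by 2.11 ± 0.29 and Gata3 by at least 3.01-fold, and Atoh1, Sox2, Gfi1 and Fgf10 were above the floor on no array. Of 3 tested epithelial probe sets, that of Krt18 fell by 2.64 on the log2 scale late and the 2 of Krt8 did not pass (0.19 ± 0.31 and -0.05 ± 0.16), and Krt19, Epcam and Cdh1 were never above the floor. Of 6 tested probe sets of fibroblast or mesenchyme markers 1 passed late: decorin (Dcn) rose by at least 72.3-fold (a mean intensity of 15930 late, against values at the floor on both day 0 arrays). Those of Col1a1, Col3a1 and Twist1 differed by 0.06 to 0.58 and did not pass, and Col1a2, Lum and Thy1 were never above the floor. Of 28 tested probe sets of genes related to interferon, 14 fell and 2 rose late. The falls included Iigp1 (-6.49 ± 0.44), Igtp (-4.22 ± 0.45) and Psmb10 (-4.08 ± 0.25, at the floor in all late cultures). Those that rose were Ifit3 (by at least 1.91 ± 0.45) and Ifngr1 (by at least 1.27 ± 0.33), each at the floor on both day 0 arrays. The share of probe sets above the floor was 30.9% to 50.8% per array, and the part of these shifts in the lysosomal differences was not tested.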

How the data were processed

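Total RNA of UB/OC-1 cultures was measured on 2 oligonucleotide array designs. The deposited values are linear intensities, 1 per probe set and array, scaled by the authors, per the values in the files, to 1 trimmed mean; which software and background method they used is not given in the sources used here. Gene symbols came from the platform annotation and promoters from RefSeq (GRCm38.p6); no genome was used.

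The 122 control probe sets were left out. The floor of each design was the 75th percentile of the size of its negative values (141 and 198), and a probe set was tested where at least 2 of its 16 arrays exceeded the floor. Values were raised to the floor, log2-transformed and analysed by linear models in limma 3.58.1 under R 4.3.3 (lmFit, eBayes with trend and robust), each design separately, all 16 arrays in 4 phases with 1 estimate of the spread. Tests were two-sided, with Benjamini-Hochberg adjustment over both designs and a threshold of 0.05. Since different days make up a phase, any change inside the phase counts as spread. Where 1 day 0 array was at the floor, a fold depends on the floor.

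Experiment pairs the cultures: differences between experiments A and B on shared days correlated over all 12 pairs of days (r from 0.27 to 0.73). The main fit has no block, and blocked values are given where they change a call. Experiment B makes up 1 of 2 day 0 cultures but a smaller share of the later phases.

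Members and lists were chosen with earlier results of these data known. Members past the threshold are given in full, others that exceeded the floor on 8 or more arrays by range and change, the rest by count; of other lists, called genes are named, at most the 4 of largest change per direction. A covariate for array noise was added after seeing the data. The fit was tested on simulated data.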

Additional observations from a re-analysis of the deposited data

Results flagged for a closer look

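In 93 sets of values (tested probe sets in the early, middle and late phases with at most 1 culture at the floor), the highest or lowest culture was set apart from the rest of its phase in 4, by the size of its gap relative to the range of the phase. Chance alone sets apart about 1 in 20 such groups. In 3 of the 4 it was an experiment B culture, and in each of the 4 the lowest of its phase. Cathepsin D read 7157 on day 9 of experiment B, against 10650 to 12489 in the other late cultures. Progranulin probe set 2 read 1643 on day 4 of experiment B, against 2596 to 2928 in the other middle cultures. Gm2a read 649 on day 4 of experiment B, against 1098 to 1231. Legumain was low at 306 on day 6 of experiment A, against 680 to 825.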

How the results depend on the processing

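No called member reversed its direction under any alternative run. Calls that remained under each were Grn probe set 2 early, Ctsa probe set 2, Ctsd and Grn probe set 2 in the middle phase, and Ctsa probe set 2, Ctsd, Hexa and Psap probe set 1 late. The share of all features called was not counted under the alternatives, so the following counts of members cannot be set against it. With the replicate block (experiment), 11 probe sets passed early, 18 in the middle phase and 1 (Hexa) for late against early. In experiment A alone 2, 5 and 5 passed early, middle and late. With array noise as a covariate, chosen after seeing the data, 9 passed early, 18 in the middle phase and 1 (Hexa) late against early. Without the filter 8 passed late. With early as days 1 and 2, 1 (Smpd1) passed late against early. Leaving out 1 culture at a time gave 1 to 8 early, 6 to 14 in the middle phase, 7 to 14 late and 0 to 1 late against early. The median difference of the members ranged from 0.71 to 0.93 early, 0.83 to 1.12 in the middle phase, 0.77 to 1.10 late and -0.07 to 0.27 late against early; -0.07, the only reversal, came without day 1 of experiment A. The causes were not tested. Each contrast with day 0 rests on 2 day 0 cultures, and values under the floor carry no order.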
